A study of Mus musculus with 32 samples.

Results

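Peroxisomes are membrane-bound organelles that shorten very long-chain, branched and dicarboxylic fatty acids by beta- and alpha-oxidation, make the first intermediates of ether lipids and break down the hydrogen peroxide that their oxidases release. They are built by the peroxins, the products of the Pex genes, which insert membrane proteins and import folded matrix enzymes. In brown adipose tissue, which burns fatty acids for heat, peroxisomes are numerous and pass shortened acyl chains on to the mitochondria, and many peroxisomal genes are known targets of the peroxisome proliferator-activated receptors (PPARs). The 32 genes described here are peroxins, membrane proteins and oxidation enzymes chosen by name. They were found by matching their symbols to the Ensembl identifiers of the count table, which held 50686 genes. All 32 members were among the 15505 genes that passed the filter on low counts, so none was lost.

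The transcripts were counted in interscapular brown adipose tissue (iBAT). The donors were C57BL/6J males aged 10 weeks that had free access to chow, were not fasted and lived in mild cold with 12 h of light a day. Time is Zeitgeber time (ZT): lights, which mark the inactive phase, went on at ZT0 and off at ZT12, when the active phase began. Tissue was taken every 3 h at 8 time points. Each time point held 4 mice, every mouse gave 1 library, and no group carried a transgene or drug. The design asks which transcripts oscillate over the day.

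Libraries held between 16300770 and 18254659 counts. All 8 brown adipocyte markers were detected, and their summed level was 5070 to 9321 CPM (counts scaled to library size with TMM factors). The summed level of 10 skeletal muscle genes ran from 2.56 to 7276 CPM, was over 1000 CPM in 15 of the 32 libraries, and averaged 459 CPM at ZT6 and 3475 CPM at ZT15. Per the library names, lane 2 of the sequencer held ZT0 to ZT6, lane 3 held ZT9 to ZT15 and lane 4 held ZT18 and ZT21, so differences between lanes and between those times cannot be told apart. In whole tissue, fewer brown adipocytes and less RNA per adipocyte cannot be told apart either.

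These sequences are shown because their genes carry the patterns described below: Pex3, Decr2 and Gnpat peaked in the light phase, and Scp2 fell with Ppara between mice. Each is the 250 bases before a transcription start in RefSeq (build GRCm38.p6), 5′ to 3′ on the strand of the gene, at chr10:13553143-13553392 on the minus strand for Pex3, chr17:26090165-26090414 on the minus strand for Decr2, chr8:124862783-124863032 on the plus strand for Gnpat and chr4:108118548-108118797 on the minus strand for Scp2. The listed starts of Decr2 and Scp2 lie inside the annotated genes. Capitals mark matches to the motifs searched.
Pex3: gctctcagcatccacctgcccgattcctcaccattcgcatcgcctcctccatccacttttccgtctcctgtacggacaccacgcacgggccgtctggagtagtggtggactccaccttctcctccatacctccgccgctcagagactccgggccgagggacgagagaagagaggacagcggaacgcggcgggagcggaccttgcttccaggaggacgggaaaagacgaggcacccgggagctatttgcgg
Decr2: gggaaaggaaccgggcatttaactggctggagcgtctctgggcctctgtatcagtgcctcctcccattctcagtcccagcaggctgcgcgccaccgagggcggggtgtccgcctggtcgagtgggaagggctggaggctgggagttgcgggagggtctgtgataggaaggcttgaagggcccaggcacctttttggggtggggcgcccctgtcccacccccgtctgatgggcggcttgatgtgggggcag
Gnpat: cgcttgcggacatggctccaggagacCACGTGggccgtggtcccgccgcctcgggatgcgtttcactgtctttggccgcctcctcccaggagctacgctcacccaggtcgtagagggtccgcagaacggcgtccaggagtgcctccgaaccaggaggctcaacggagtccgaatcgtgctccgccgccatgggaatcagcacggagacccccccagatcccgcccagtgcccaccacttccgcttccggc
Scp2: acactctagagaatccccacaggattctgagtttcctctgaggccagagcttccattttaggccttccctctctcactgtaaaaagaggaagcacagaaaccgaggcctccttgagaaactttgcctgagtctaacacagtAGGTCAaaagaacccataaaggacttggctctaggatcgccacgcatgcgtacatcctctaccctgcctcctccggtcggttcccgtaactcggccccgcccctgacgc
Motifs were searched on both strands of these 250 bases for the 24 members found in the promoter table used here, beside 32851 promoters in all. The nuclear receptor half-site AGGTCA lay in 2 members, Cat and Scp2, and in 14.0% of all promoters. The E-box CACGTG, which clock factors bind, lay in 1 member, Gnpat, and in 6.02% of all promoters. The cAMP response element TGACGTCA lay in Pex13 and in 1.55% of all promoters. The D-box TTATGTAA (0.819% of all promoters) and the direct repeat AGGTCANAGGTCA, the element of PPARs, which overlaps the half-site (0.0335%), were in none of the 24. A match describes these letters only.

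Levels between genes were compared per kb of exon in the GENCODE annotation of GRCm38. Phyh, the phytanoyl-CoA hydroxylase that opens alpha-oxidation, was highest with 341 ± 19.8 CPM per kb (SD over 32 mice), followed by Cat, the catalase that degrades hydrogen peroxide, with 201 ± 20.2 and by Crat, a carnitine acetyltransferase, with 151 ± 22.7. The lowest members were Pex26, the membrane anchor of the export motor, with 2.60 ± 0.384 CPM per kb, Pex7, an import receptor, with 2.91 ± 0.282, and Agps, the enzyme that forms the ether bond of plasmalogens, with 3.87 ± 0.419. The 3 highest members were enzymes, and the 3 lowest were 2 import peroxins and 1 enzyme.

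Over the day, 13 of the 32 members had a 24 h cosine component (edgeR's quasi-likelihood test, Benjamini-Hochberg (BH) adjusted over all genes, threshold 0.05), whereas 36.1% of all tested genes passed the same test. JTK, an exact rank test against cosine templates, called 15 members at P under 0.05 (36.4% of all genes), of which 12 were among the 13 and 10 passed after BH adjustment, and 15 members differed between the 8 time points (39.8% of all genes). These shares are near the background with TMM scaling. With library size alone they were above it, with a cosine in 19 of 32 members against 5269 of 15505 genes and JTK calls in 18 members against 5384 genes. Oscillations were small: the median fitted ratio of peak to trough was 1.16 among the members and 1.21 among all tested genes, and 1 member, Ehhadh, exceeded 2-fold (5.57% of all genes did). Of the 13, 10 peaked in the light phase, between ZT4.3 and ZT10.1, and 3 in the dark phase, whereas 50.9% of all genes past the cosine test peaked in the light phase. By role, the cosine was past the threshold in 4 of 4 membrane insertion and proliferation genes, 1 of 8 matrix import genes, 2 of 5 membrane transporters and channels, 3 of 8 beta-oxidation enzymes, 0 of 2 alpha-oxidation enzymes, 2 of 2 carnitine acyltransferases and 1 of 2 ether lipid enzymes, and not for Cat.

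**Figure D1:**
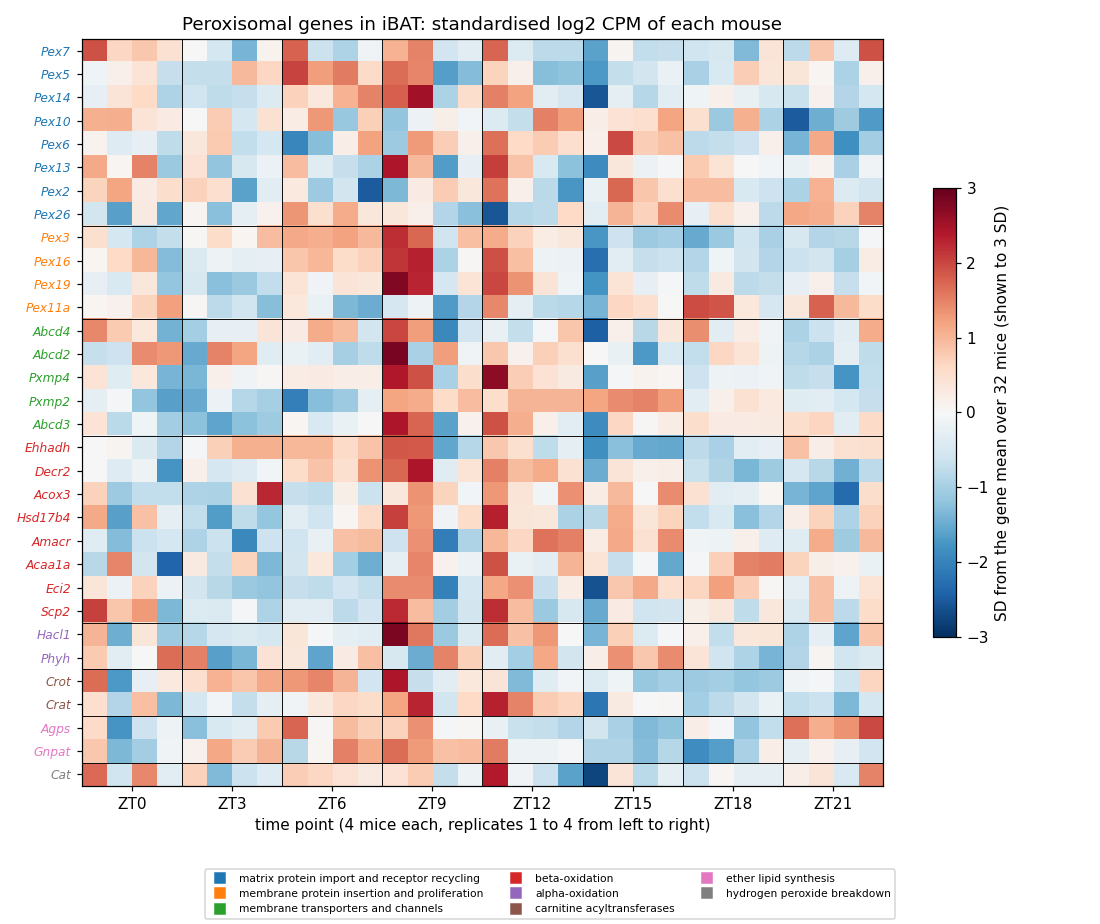
Standardised log2 CPM of the 32 members (rows, coloured and divided by role) in each of the 32 mice (columns, grouped by time point, replicates 1 to 4 from left to right); the colour is the distance from the gene's mean in SD. The reddest columns are replicates 1 and 2 of ZT9 and replicate 1 of ZT12, and replicate 1 of ZT15 is blue in most rows.

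**Figure D2:**
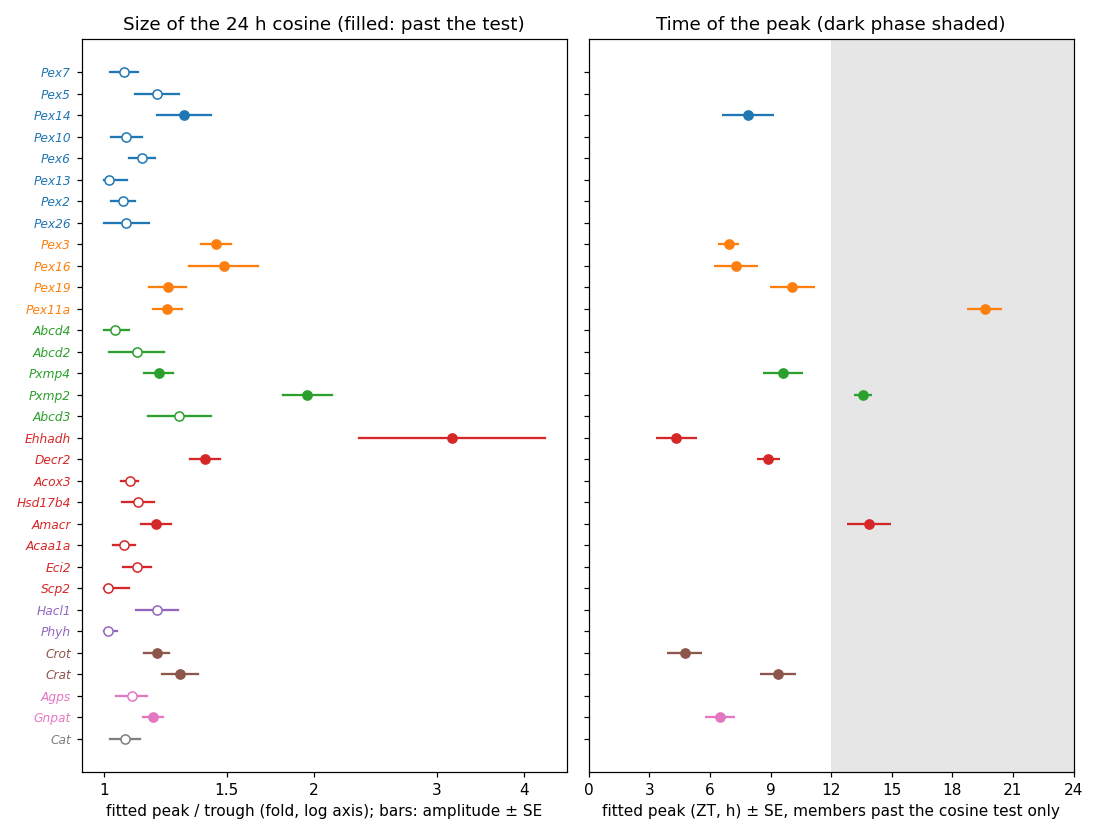
Left, fitted ratio of peak to trough of each member on a log axis, with bars for the amplitude ± SE and filled points for members past the cosine test; right, fitted peak time ± SE of the 13 members past the test. Ehhadh and Pxmp2 have the largest ratios (3.15 and 1.96), and 10 of the 13 peaks lie before ZT12.

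All 4 membrane biogenesis genes passed the cosine test, with modest ratios, and Pex3 alone of them also passed with lane as an additive factor (adjusted p = 0.0818 for Pex16, 0.116 for Pex19 and 0.200 for Pex11a). Pex3, the docking receptor for the membrane protein chaperone on the peroxisome, averaged 53.4 CPM at ZT0, 61.0 at ZT3, 68.4 at ZT6, 68.9 at ZT9, 62.9 at ZT12, 47.5 at ZT15, 48.0 at ZT18 and 52.0 at ZT21 (SD 1.07 to 13.3, n = 4). The 4 mice of ZT9 had 82.1, 75.6, 51.5 and 66.2 CPM and those of ZT15 had 42.7, 51.5, 47.6 and 48.2 CPM. The groups did not overlap, although the lowest mouse of ZT9 and the highest of ZT15 were all but equal. Where the highest and lowest time points are compared, here and below, they were picked by their means. That choice favours a lack of overlap, which is therefore a description and no test. The fitted peak was at ZT6.9 ± 0.52 h (SE) with a ratio of peak to trough of 1.45 (adjusted p = 4.42e-06). Pex16, which recruits Pex3 to the membrane, ranged from 23.8 to 78.5 CPM between mice and peaked at ZT7.3 ± 1.1 h (ratio 1.49, adjusted p = 0.00975). Pex19, the soluble chaperone of membrane proteins, peaked at ZT10.1 ± 1.1 h (ratio 1.24, adjusted p = 0.0120), and its call was lost without ZT9 (adjusted p = 0.0742).

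Pex11a, whose product elongates and divides peroxisomes, peaked in the dark phase, unlike these 3. It averaged 87.1 CPM at ZT0, 75.7 at ZT3, 75.6 at ZT6, 74.4 at ZT9, 81.1 at ZT12, 81.4 at ZT15, 91.8 at ZT18 and 91.2 at ZT21 (SD 4.94 to 13.1, n = 4). The mice of ZT18 had 103, 102, 84.9 and 76.8 CPM and those of ZT9 had 76.9, 80.2, 66.8 and 73.6 CPM. The groups overlapped, since the lowest mouse of ZT18 lay below 2 mice of ZT9, and the fitted peak lay at ZT19.6 ± 0.87 h (ratio 1.23, adjusted p = 0.00324). The test of any difference between time points passed for Pex11a with adjusted p = 0.0495 but failed in 25 of the 32 fits that left out 1 library, up to 0.0936 without ZT18 replicate 1.

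Among the 8 matrix import genes, 1 passed the cosine test: Pex14, a docking protein of the import pore, with a peak at ZT7.9 ± 1.3 h (ratio 1.30, adjusted p = 0.0261). Within lane 2 it had 49.3, 47.7, 48.4 and 51.3 CPM at ZT3 and 63.5, 59.0, 68.1 and 74.3 CPM at ZT6, with no overlap. The cosine call was lost without ZT9 (adjusted p = 0.109 by edgeR), and without ZT9 replicate 1 (0.0544) or ZT9 replicate 2 (0.0706) alone. The exact JTK test did not call Pex14 (P = 0.456), and 28.3% of its exonic bases lie opposite an antisense gene. Pex10, a ubiquitin ligase that recycles the import receptors, differed between time points without a cosine (adjusted p = 0.0291). It was at 12.3, 13.7, 14.3 and 13.3 CPM at ZT21 and at 17.8, 17.8, 16.6 and 16.4 CPM at ZT0, with no overlap. Its call was lost without ZT21 replicate 1 (0.116), ZT21 replicate 2 (0.0617) or ZT21 replicate 4 (0.0741). Pex26 also differed between time points (adjusted p = 0.0135), with 17.4, 17.2, 16.2 and 18.3 CPM at ZT21 against 13.4, 11.4, 15.2 and 11.5 CPM at ZT0, again without overlap. The receptors Pex5 and Pex7, the ligase Pex2, the motor subunit Pex6 and the docking protein Pex13 passed neither test (adjusted p of the cosine 0.0641 to 0.923), and the upper 95% limits of their ratios of peak to trough were 1.44, 1.21, 1.18, 1.27 and 1.19. These limits hold for the fit without lane: with lane as an additive factor the ratio of Pex7 was 1.22.

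Of the membrane transporters and channels, Pxmp2, which forms a channel for small solutes, had the lowest adjusted p of the cosine among the members. It averaged 23.5 CPM at ZT0, 22.8 at ZT3, 21.1 at ZT6, 38.4 at ZT9, 37.8 at ZT12, 42.9 at ZT15, 30.5 at ZT18 and 25.4 at ZT21 (SD 1.19 to 4.97, n = 4). The 4 mice of ZT15 had 40.9, 43.9, 44.7 and 42.0 CPM and those of ZT6 had 16.1, 20.2, 21.3 and 27.0 CPM. Every mouse of ZT15 was above every mouse of ZT6, and the fitted peak was at ZT13.6 ± 0.46 h (ratio 1.96, adjusted p = 5.60e-07). Within lane 4 every mouse of ZT18 (26.6, 30.4, 33.4 and 31.7 CPM) was above every mouse of ZT21 (26.2, 26.4, 25.0 and 23.9 CPM), with an unadjusted p of 0.00596 in edgeR and an adjusted p of 0.0819. Pxmp2 passed the adjusted threshold in no lane (0.789 in lane 2, 0.326 in lane 3), and beside lane as an additive factor its ratio was 1.26 and the adjusted p of its cosine 0.322. Pxmp4, a membrane protein of the same family, averaged 51.4 CPM at ZT0, 50.9 at ZT3, 54.0 at ZT6, 59.4 at ZT9, 59.5 at ZT12, 50.6 at ZT15, 51.2 at ZT18 and 47.2 at ZT21 (SD 0.115 to 9.81, n = 4). The mice of ZT12 had 71.3, 57.2, 55.3 and 54.3 CPM and those of ZT21 had 48.4, 48.8, 43.3 and 48.5 CPM. They did not overlap, although 1 mouse stood above the rest at ZT12, and the peak was at ZT9.6 ± 0.99 h (ratio 1.20, adjusted p = 0.00796). With lane as an additive factor this cosine did not pass (ratio 1.19). The call of Pxmp4 for any difference between time points (adjusted p = 0.0477) failed in 25 of the 32 fits that left out 1 library, up to 0.0928 without ZT9 replicate 2. The acyl-CoA transporters Abcd2 and Abcd3 and their relative Abcd4, which acts in the lysosome, did not pass (adjusted p 0.480, 0.0843 and 0.802). Within lane 2 Abcd3 was at 239, 221, 239 and 247 CPM at ZT3, its lowest time point, and at 316, 283, 299 and 312 CPM at ZT6, so that these groups did not overlap.

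Of the beta-oxidation enzymes, Decr2, the reductase that handles unsaturated acyl-CoA, averaged 41.3 CPM at ZT0, 43.5 at ZT3, 50.9 at ZT6, 53.5 at ZT9, 52.5 at ZT12, 43.8 at ZT15, 38.5 at ZT18 and 39.1 at ZT21 (SD 1.78 to 10.2, n = 4). The mice of ZT9 had 58.5, 65.1, 42.5 and 47.7 CPM and those of ZT18 had 40.5, 39.0, 36.2 and 38.1 CPM. No mouse of ZT9 was as low as the highest of ZT18, and the peak was at ZT8.9 ± 0.57 h (ratio 1.40, adjusted p = 1.64e-05). Amacr, the racemase that makes branched chains ready for oxidation, peaked at ZT13.9 ± 1.1 h (ratio 1.19, adjusted p = 0.0184). Its cosine did not pass with lane as an additive factor, where its ratio was 1.33.

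Ehhadh, the bifunctional enzyme for dicarboxylic acids, had the largest fitted ratio of peak to trough, 3.15, with a peak at ZT4.3 ± 1.0 h (adjusted p = 0.0103), and also the widest spread between mice. Its level was 70.8, 75.1, 51.9 and 37.5 CPM at ZT0, 69.3, 120, 154 and 155 at ZT3 and 145, 147, 107 and 132 at ZT6. At ZT9 it was 273, 268, 22.9 and 38.1 CPM, at ZT12 127, 102, 41.0 and 58.4, and at ZT15 18.9, 29.0, 23.8 and 23.4. At ZT18 it was 40.2, 35.0, 57.0 and 59.3 CPM and at ZT21 134, 81.9, 99.8 and 101. The mice of ZT9 thus fell far apart, with 2 above and 2 below every mouse of ZT6, whereas the mice of ZT15 lay close together. Levels also differed between time points within lane 2 (adjusted p = 0.0199) and within lane 4 (adjusted p = 0.0197), where every mouse of ZT21 exceeded every mouse of ZT18. The lane 2 call was lost without ZT0 replicate 3 (0.0659). With lane as an additive factor the fitted ratio of Ehhadh was 8.03, so its size depended on how lane was treated.

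The remaining beta-oxidation enzymes did not pass the cosine test: the oxidase Acox3, the multifunctional Hsd17b4, the thiolase Acaa1a, the thiolase and sterol carrier Scp2 and the isomerase Eci2 (adjusted p 0.0746 to 0.992). The upper 95% limits of their ratios of peak to trough were 1.17, 1.29, 1.17, 1.21 and 1.26. The exact JTK test called Acox3 (P = 0.0184) and Eci2 (P = 0.0271), neither of which passed after BH adjustment over all genes (0.0623 and 0.0841). For Scp2, 67.8% of the 100-base stretches of the longest transcript are its own, the others being shared with the pseudogene Scp2-ps2, and for Acaa1a it is 90.2% because of its paralog Acaa1b, so reads of these 2 may be split or lost. The alpha-oxidation enzymes Phyh and Hacl1 did not pass either, with upper limits of 1.10 and 1.42. For Hacl1, 31.1% of the exonic bases lie in a second gene model on the same strand, Gm49387, and 52.2% of the 100-base stretches are its own, so its reads may be split too. Cat ranged from 397 to 663 CPM with an upper limit of 1.22.

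Both carnitine acyltransferases, which load acyl groups for export to mitochondria, passed the cosine test, but neither did with lane as an additive factor (adjusted p = 0.232 for Crat and 0.0890 for Crot). Crat averaged 786 CPM at ZT0, 758 at ZT3, 845 at ZT6, 923 at ZT9, 975 at ZT12, 759 at ZT15, 733 at ZT18 and 714 at ZT21 (SD 30.5 to 159, n = 4). The mice of ZT12 had 1123, 997, 898 and 883 CPM and those of ZT21 had 721, 732, 661 and 744 CPM. All of the former were above all of the latter, and the peak was at ZT9.4 ± 0.89 h (ratio 1.29, adjusted p = 0.00300). Crot, the octanoyltransferase, averaged 64.4 CPM at ZT0, 69.9 at ZT3, 69.5 at ZT6, 67.3 at ZT9, 61.9 at ZT12, 59.8 at ZT15, 57.4 at ZT18 and 63.9 at ZT21 (SD 0.333 to 9.78, n = 4). The mice of ZT3 had 67.3, 71.0, 69.5 and 71.6 CPM and those of ZT18 had 57.4, 57.8, 57.0 and 57.4 CPM. These 2 groups were tight and apart, but they were picked as the highest and lowest means, so their separation is no test. The peak was at ZT4.8 ± 0.88 h (ratio 1.19, adjusted p = 0.00395). The test of any difference between time points did not pass for Crot (adjusted p = 0.0681).

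In ether lipid synthesis, Gnpat, which acylates dihydroxyacetone phosphate in the first step, averaged 316 CPM at ZT0, 349 at ZT3, 341 at ZT6, 362 at ZT9, 336 at ZT12, 300.4 at ZT15, 299 at ZT18 and 320.0 at ZT21 (SD 5.23 to 30.6, n = 4). The mice of ZT9 had 377, 365, 352 and 353 CPM and those of ZT18 had 279, 284, 301 and 332 CPM. They did not overlap, and the peak was at ZT6.5 ± 0.75 h (ratio 1.18, adjusted p = 0.00170). Of its 100-base stretches 93.7% are its own, the others being shared with Gm16163. Agps had no cosine (adjusted p = 0.298) but differed between time points (adjusted p = 9.59e-04). The exact JTK test called it (P = 0.0445, BH-adjusted 0.124), a call lost in 22 of the 32 fits that left out 1 library. It was high at ZT21, with 43.3, 40.7, 41.8 and 44.7 CPM, and also at ZT6, with 43.6, 36.4, 40.1 and 39.1 CPM, and low at ZT15, with 34.2, 32.7, 31.5 and 31.9 CPM. Beside lane, its cosine passed (adjusted p = 0.00863).

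**Figure D3:**
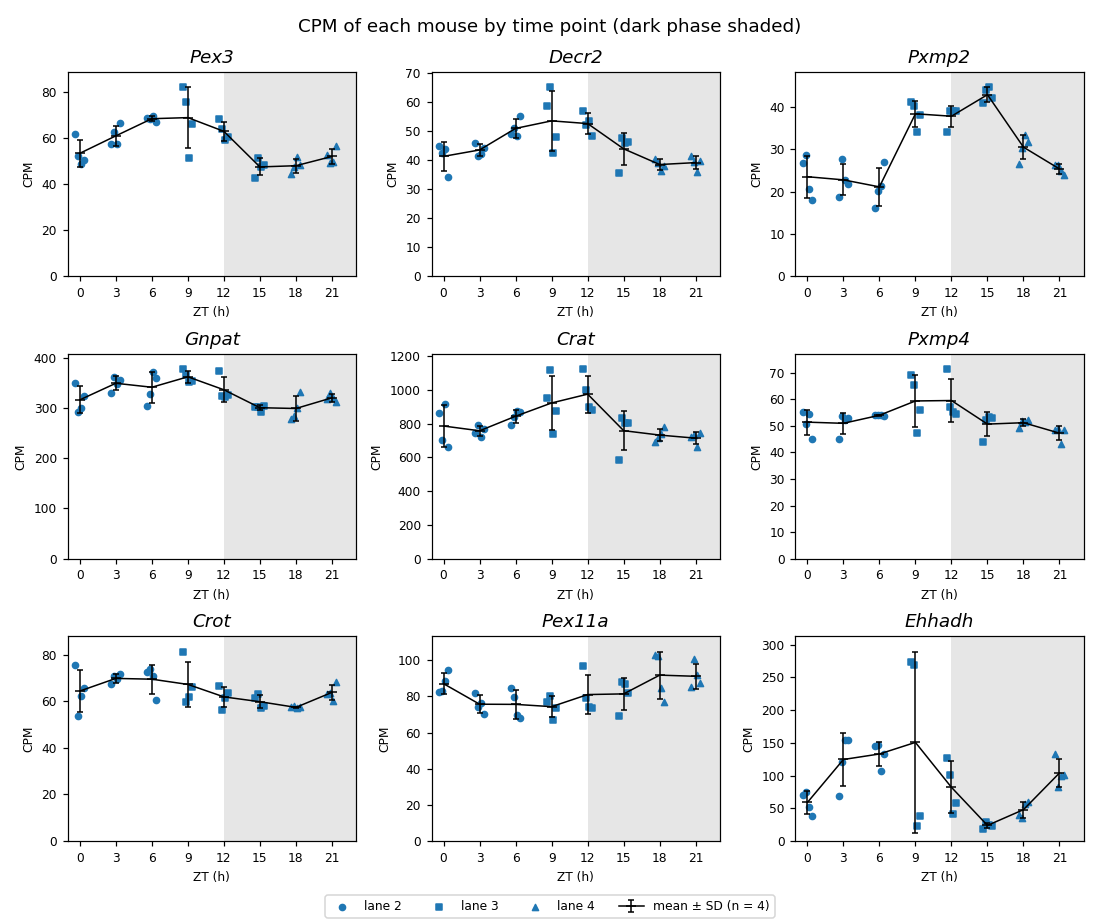
CPM of each mouse against ZT for the 8 members with the lowest adjusted p of the cosine and for Ehhadh; marker shape gives the lane, lines the mean ± SD of 4 mice, and grey the dark phase. Pex3, Decr2, Crat and Pxmp4 are highest at ZT9 or ZT12, Pxmp2 at ZT15 and Pex11a at ZT18, and the mice of ZT9 spread from 22.9 to 273 CPM for Ehhadh.

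Because lane followed time, the tests were repeated within lanes. In lane 2 (ZT0, ZT3, ZT6), 4 of the 32 members differed between time points (13.3% of all genes did): Ehhadh, Pex3 (adjusted p = 0.0278), Pex14 (0.0290) and Abcd3 (0.0484). With 1 library left out in turn, they were called in 11, 7, 5 and 2 of 12 fits. In lane 3 no member passed (edgeR; 1.93% of all genes did), while 5 members had an unadjusted p under 0.05: Pex3, Pex16, Ehhadh, Gnpat and Agps. Over all genes 16.0% had such a p in lane 3, so that 5 of 32 is near the background. In lane 4 Ehhadh and Agps (adjusted p = 0.0305) passed (4.48% of all genes did), Ehhadh in 8 and Agps in 2 of 8 fits that left out 1 library. With lane as an additive factor, 6 members kept or gained a cosine (17.2% of all genes): Pex3 (adjusted p = 1.11e-04), Ehhadh (2.85e-04), Gnpat (0.00395), Agps, Decr2 (0.0135) and Pex14 (0.0486).

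At ZT12 against ZT0, the onset of the active against that of the inactive phase, 3 members were higher (7.71% of all genes were) and 0 lower (8.15% of all genes were), by edgeR with BH adjustment. Over all genes 1196 were higher and 1263 lower with TMM scaling, against 1358 higher and 930 lower with library size alone, where 7 members were higher. At an unadjusted p under 0.05, 7 were higher and 0 lower, which together is below the 30.1% of all genes with such a p, and DESeq2 called 4, of which 0 were lower. Pxmp2 was at 26.8, 28.6, 20.6 and 18.1 CPM at ZT0 and at 34.0, 39.0, 39.2 and 39.0 CPM at ZT12 (log2 difference 0.68 ± 0.13 (SE), adjusted p = 6.06e-04). Decr2 had 44.8, 42.3, 43.9 and 34.1 CPM at ZT0 and 56.7, 52.0, 53.3 and 48.1 CPM at ZT12 (0.35 ± 0.10, adjusted p = 0.0219). Amacr had 31.8, 28.6, 30.8 and 31.3 CPM at ZT0 and 37.2, 35.6, 39.9 and 39.5 CPM at ZT12 (0.31 ± 0.091, adjusted p = 0.0188). In each of these 3 all mice of ZT12 were above all mice of ZT0. All libraries of ZT0 were on lane 2 and all of ZT12 on lane 3, so time and lane cannot be told apart here. With lane as an additive factor the fitted ratio of peak to trough of Pxmp2 was 1.26. Decr2 lost the call in a fit of the libraries of ZT0 and ZT12 alone (0.0542), and without ZT0 replicate 4 (0.0765) or ZT12 replicate 1 (0.0605), and Amacr without ZT0 replicate 2 (0.0632), ZT12 replicate 3 (0.0579) or ZT12 replicate 4 (0.0510). The median log2 difference was 0.084 over the members and 0.0017 over all genes.

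Muscle markers differed between these libraries. Those at or under 1000 CPM of muscle genes were 1 mouse at ZT15, 3 each at ZT3 and ZT6 and 2 at every other time point. Calls in that subset thus rest on fewer mice, spread unevenly over the day. Without the 15 libraries over 1000 CPM of muscle genes, 4 of 32 members kept the cosine (Pxmp2, Pex3, Decr2 and Pex11a), 1 differed between time points (Pxmp2) and none differed between ZT12 and ZT0, while of 16063 genes 2863 had a cosine, 1548 differed between time points and 366 between ZT12 and ZT0. With the muscle level as a covariate, 14 of 32 members had a cosine, as had 5483 of 15505 genes. Of the 8 leukocyte markers 4 and of the 6 endothelial and stromal markers 4 had a cosine themselves, all with a peak in the light phase, as had 3 of the 8 brown adipocyte markers. Of 5 white fat markers 2 had a cosine, 1 with a peak in the dark phase, and their summed level averaged 64.0 CPM at ZT6 and 280.0 CPM at ZT15. The part of other cell types in the members' rhythms was not tested.

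Members also varied together between mice of the same time point. Over the 32 mice, the median Pearson r of the 496 pairs of members, taken on deviations from the time-point means, was 0.28, and 156 pairs had r over 0.5, whereas the median r of a member with any other tested gene was -0.026. Among the highest were Pex19 with Abcd3 (r = 0.93), Pex14 (0.91) and Pex16 (0.91), and the 2 pairs under -0.5 were Phyh with Ehhadh (-0.63) and with Acaa1a (-0.56). The points share libraries and scaling: the median was 0.10 with library size alone and 0.31 with DESeq2 size factors, and 0.18, 0.43 and 0.25 within lanes 2, 3 and 4. It is a description without a test.

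**Figure D4:**
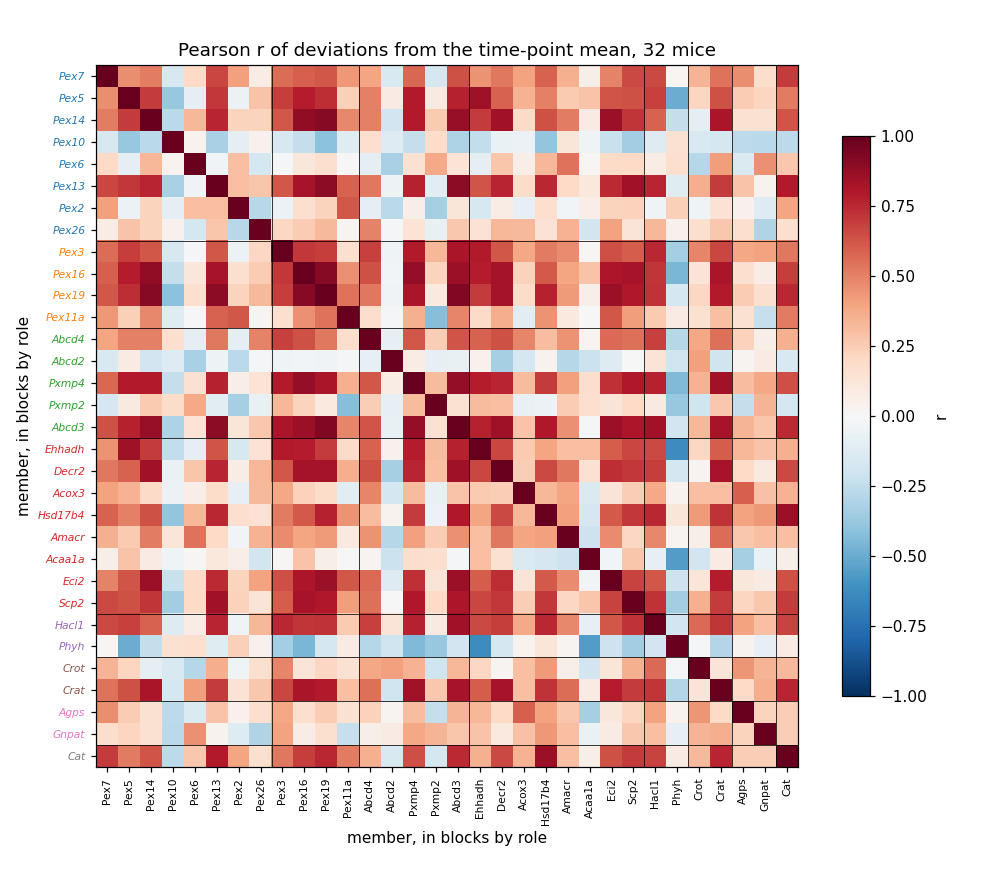
Pearson r between members (rows and columns, in blocks by role) on the deviations of log2 CPM from the time-point mean over 32 mice. Red cells join peroxins, transporters and oxidation enzymes (156 of 496 pairs over 0.5), while the rows of Phyh and Pex10 are mostly pale or blue.

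Ppara encodes PPAR alpha, the nuclear receptor that induces fatty acid oxidation genes. It ran from 27.3 to 287 CPM between mice and was singled out after these values were seen. In the edgeR model with time point and the deviation of Ppara as terms, 10 of 32 members were lower in mice with more Ppara (10.3% of all genes were lower) and 0 were higher (8.46% were higher). At an unadjusted p under 0.05, 16 were lower and 0 higher, while 33.1% of all genes had such a p in either direction. Over all genes 1312 were called higher and 1596 lower with TMM scaling, against 2610 higher and 965 lower with library size alone, where 9 members were lower and 1, Phyh, was higher. The slopes were -0.47 ± 0.085 (SE) log2 units per log2 unit of Ppara for Pex16 (adjusted p = 8.44e-04), -0.28 ± 0.052 for Scp2 (0.00119), -0.24 ± 0.054 for Pex13 (0.00421), -0.21 ± 0.051 for Pex19 (0.00732) and -0.19 ± 0.048 for Decr2 (0.00732). Abcd4, Pex14, Abcd3, Pxmp4 and Eci2 were the others, and the median slope was -0.11 over the members and 0.017 over all genes. At ZT9 Ppara was at 104, 191, 269 and 287 CPM in replicates 1 to 4, where Pex16 was at 75.0, 78.5, 33.4 and 43.2 CPM and Abcd3 at 532, 458, 220 and 322 CPM.

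Calls in this test rested in part on single libraries. The count was 5 without ZT9 and 6 without ZT9 replicate 1 alone, where 5.01% and 6.40% of all genes were called lower. Without ZT0 replicate 2, the library with the least Ppara, it was 14, while 2133 of 15677 genes were called lower. Abcd3 lost its call without ZT9 replicate 1 (0.0904), Abcd4 without ZT0 replicate 4 (0.0630) or ZT9 replicate 1 (0.0503), and Decr2 without ZT0 replicate 4 (0.0506). Pxmp4 lost it without ZT0 replicate 4 (0.0701), ZT15 replicate 1 (0.0546) or ZT9 replicate 1 (0.0816), and Eci2 in 10 of 32 such fits. Markers of other cells had slopes on Ppara too: all 10 muscle genes had positive slopes (median 0.70) with none past the threshold, as had all 6 endothelial and stromal markers with 2 past it, all 5 blood markers and 7 of 8 leukocyte markers with none past it. Of 5 white fat markers 2 had positive and 3 negative slopes (median -0.13), none past the threshold. Brown adipocyte markers had negative slopes in 7 of 8 cases (median -0.084, 1 past the threshold), near the median of the members. The part of the makeup of the tissue in these slopes was not tested. The 10 members were called with muscle as a covariate, and no gene, member or other, was called in the 17 libraries at or under 1000 CPM of muscle genes, where 928 genes had an unadjusted p under 0.05.

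**Figure D5:**
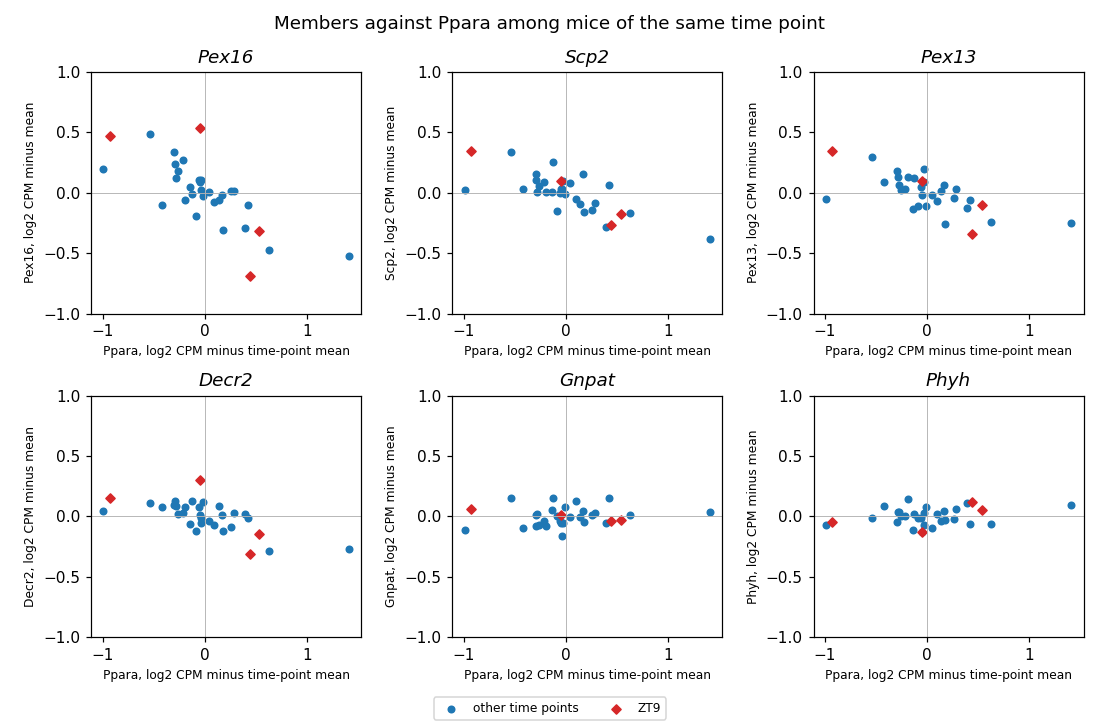
Deviation of log2 CPM from the time-point mean for 6 members against that of Ppara, 1 point per mouse, with ZT9 as red diamonds. Pex16, Scp2, Pex13 and Decr2 fall with Ppara, whereas Gnpat and Phyh, with slopes of 0.023 and 0.044, did not pass the test.

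Of 38 other peroxisomal genes tested, 11 had a cosine (36.1% of all genes had one), 6 with a peak in the light phase and 5 in the dark phase. The acyl-CoA synthetase Slc27a2 had a ratio of peak to trough of 3.36 and a peak at ZT7.4 ± 0.44 h (adjusted p = 1.25e-07), with 34.6 CPM in ZT18 replicate 1 and 272 CPM in ZT6 replicate 4. Xdh, xanthine dehydrogenase, peaked at ZT16.4 (ratio 1.72) and Pecr, an enoyl-CoA reductase, at ZT14.7 (ratio 1.42). At ZT12 against ZT0, 5 of the 38 were higher (7.71% of all genes) and 1 lower (8.15%). With higher Ppara 10 of the 38 were lower (10.3% of all genes).

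Mitochondrial beta-oxidation, which receives the shortened chains, had 0 of 17 genes past the cosine test by edgeR, with 3 at an unadjusted p under 0.05 and 2 called by DESeq2. Of all genes 36.1% passed that edgeR test and 46.8% had such a p. In the Ppara test 4 of these 17 were lower and 0 higher (median slope -0.093), beside 10.3% lower and 8.46% higher over all genes. Its 2 genes with the lowest adjusted p were Etfb, a subunit of the electron transfer flavoprotein (0.0516), and the carnitine carrier Slc25a20 (0.0560). Of 10 PPAR receptors and coactivators, 1 had a cosine: Ppara itself, with a peak at ZT8.6 ± 1.0 h (ratio 2.31, adjusted p = 0.0105). The clock genes Arntl, Dbp, Nr1d1 and Per2, shown as reference, all passed, with ratios from 10.9 to 40.2, far above those of the members.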

How the data were processed

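RNA was measured in 32 iBAT libraries, 4 mice at each of 8 time points. The authors deposited raw counts per gene. The submitters' processing notes name GSNAP, HTSeq (0.6.1) and build mm10, and whether the libraries, which were stranded, were counted by strand is not given in the sources used here. Members and gene lists were chosen with earlier results of these data known. Genes were named from a table of identifiers (50376 of 50686 matched) and filtered with filterByExpr of edgeR (4.0.16, R 4.3.3) by time point, which left 15505. TMM factors were between 0.923 and 1.09. The quasi-likelihood test of edgeR was used for a 24 h cosine, for the 8 time points, for ZT12 against ZT0, within lanes and for Ppara, at a BH threshold of 0.05. JTK_CYCLE was reimplemented with 15 templates of 21 and 24 h and exact null distributions. Amplitudes came from log2 CPM with a prior count of 2. Scripts were tested on simulated data.

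Values are given in every mouse at the highest and lowest time point for the 8 members with the lowest adjusted p of the cosine. These time points were picked by their means, so a lack of overlap between them is no test. Pex5, Pex7, Hsd17b4, Hacl1 and Eci2 also lacked overlap between theirs, yet passed neither the cosine test nor that of the time points. The share of all genes without such overlap was not computed. Members past the test of ZT12 against ZT0 are given at those times, and members that passed within a lane or beside lane are named with values. Ehhadh and Ppara are shown in more detail because of their values. Total counts were between 16300770 and 18254659, and p-values measure the spread between mice. The lowest mean chi-square per gene over 48 pairs of libraries of 1 time point was 7.97, so no library was counted as a duplicate. Alternatives were DESeq2 (1.42.0) and its size factors, library size alone, removal of mitochondrially encoded genes, other filters, a threshold of 0.01, lane as a factor, a replicate block, a fit of ZT0 and ZT12 alone, a muscle covariate and left-out libraries, of which the muscle alternatives, ZT9 and the Ppara test were chosen after seeing the data.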

Additional observations from a re-analysis of the deposited data

Results flagged for a closer look

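Of 104 groups of 4 mice of 13 members, 11 held a mouse far from the other 3 by Dixon's criterion, and chance flags about 1 in 20 groups. Pxmp2 at ZT12 was at 34.0 CPM in replicate 1 against 39.0 to 39.2 in the others. Decr2 at ZT15 was at 35.6 CPM in replicate 1 against 45.9 to 47.6. Gnpat at ZT12 was at 374 CPM in replicate 1 against 323 to 325, and at ZT15 it was at 293 CPM in replicate 3 against 303 to 304. Crat at ZT15 was at 587 CPM in replicate 1 against 806 to 836. Pxmp4 stood apart at 71.3 CPM in ZT12 replicate 1, 43.9 in ZT15 replicate 1, 49.2 in ZT18 replicate 1 and 43.3 in ZT21 replicate 3. Abcd3 was at 351 CPM in ZT18 replicate 1 and at 292 CPM in ZT21 replicate 3. ZT15 replicate 1 was low for Decr2, Crat and Pxmp4, and its part in their means was not tested beyond leaving it out.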

How the results depend on the processing

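The 13 cosine calls were all kept with DESeq2, with its size factors, with library size alone, without mitochondrially encoded genes, without a filter or with another, with the replicate block and with the muscle covariate; with lane as a factor 6 members passed, 5 of them shared; of the 8 lost, Pxmp2 shrank in ratio from 1.96 to 1.26, while the others were between 1.19 and 1.49 without and between 1.19 and 1.67 with lane. Without the muscle libraries 4 passed. BH adjustment of JTK left 10 of 15 members, without Pex16, Pex19, Acox3, Eci2 and Agps. Among the called members, no difference between ZT12 and ZT0 and no slope on Ppara changed sign, and no cosine peak moved by over 6 h in the edgeR fits. Peaks of members without a cosine call did move beside lane, that of Pex10 from ZT8.8 to ZT15.0. With library size alone, ZT12 against ZT0 gave 7 members (all higher), lane 3 gave 1, and the median of all genes shifted by 0.045 for that contrast. There 9 of the 10 members stayed lower with Ppara, and Phyh was called higher. With the libraries of ZT0 and ZT12 alone 2 of the 3 calls remained, Decr2 being lost. At a threshold of 0.01 the time points gave 5 members, ZT12 against ZT0 1, lanes 2 and 4 0 each and Ppara 5. Over all genes that threshold left 3350 of 15505 for the time points and 1130 of 15505 for ZT12 against ZT0. It left 442 of 14866 in lane 2, 42 of 14486 in lane 4 and 654 of 15504 lower with Ppara. Without a filter lane 2 gave 2 (1627 of 27896 genes). With the muscle covariate lane 4 gave 4, while the calls over all genes went from 649 to 991 of 14486. In the 17 libraries with less muscle, where fewer samples were tested, JTK gave 4 members, the time points 1, ZT12 against ZT0 0, lanes 2 and 4 1 each and Ppara 0. Without ZT9 Ppara gave 5.

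Leaving out 1 library gave 12 to 16 members for JTK, the cosine and the time points, 2 to 5 for ZT12 against ZT0 (5 without ZT9 replicate 3), 1 to 7 for lane 2 (7 without ZT0 replicate 4), 0 to 2 for lane 3 (2 without ZT9 replicate 3), 1 to 3 for lane 4 and 6 to 14 for Ppara. Over all genes the calls moved too. Lane 2 gave 3316 of 15031 genes without ZT0 replicate 4. Without ZT9 replicate 3, ZT12 against ZT0 gave 2621 of 15669 genes and lane 3 gave 240 of 14993. For Ppara 2133 of 15677 genes were lower without ZT0 replicate 2. Replicate numbers did not pair the mice: 49 of 112 same-numbered pairs had r over 0.1 and 8 of 32 libraries correlated best with their own number. With a replicate block the cosine gave 13 members, the time points 14, ZT12 against ZT0 3, lane 2 1, lane 4 0 and Ppara 7, while the calls over all genes went from 1974 to 1494 in lane 2, from 649 to 60 in lane 4 and from 2908 to 2127 for Ppara. The cause of these changes was not tested. At this depth and with 4 mice a time point, the smallest ratio of peak to trough past the cosine test was 1.18 (Gnpat).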
